A study of Mus musculus with 12 samples.

Results

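The heat shock proteins and their J-domain co-chaperones were followed in the ascending aorta of mice over 4 groups of arrays. Members were selected on gene symbol, as the Hspa, Hspb, Hspd, Hspe, Hsph and Hsp90 genes and the Dnaja, Dnajb and Dnajc genes, without the endoplasmic reticulum chaperones Hspa5, Hsp90b1, Dnajb9, Dnajb11 and Dnajc3. Each gene was read by the probe set of highest mean over all arrays among those annotated to that gene alone, so the probe set was chosen by its mean level, which is given only as a description. Of 70 matching symbols 5 were left out, which gave 65 members of the 19938 genes with such a probe set. Of these, 59 members passed the filter on dim genes and were tested among 14944 genes. The other 6 (Dnajb13, Dnajc22, Dnajc5g, Dnajc5b, Dnajb3 and Dnajb7) had mean levels below the limit of 7.31 on the log2 scale. The members nearest to it were Dnajb13 at 7.18 on the dim side and Dnajc28 at 7.72 on the bright side. Hspa1b and Hsp90ab1, which no probe set names without a further gene, were not analysed here as members.

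Chaperones bind unfolded or partly folded proteins and keep them from clumping. Hsp70 proteins take up and release a client in a cycle driven by ATP, J-domain proteins bring clients to them and start the hydrolysis, and Hsp110 proteins, which are distant Hsp70 relatives, exchange the spent nucleotide. Hsp90 receives clients from Hsp70 for late folding steps, the chaperonin Hsp60 with its lid Hsp10 folds proteins inside mitochondria, and small heat shock proteins hold unfolded proteins without ATP and are abundant in muscle, smooth muscle included. Many of these genes are switched on by heat shock factor 1, which binds repeats of the letters GAA and their reverse complement TTC in promoters.

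Every mouse carried the Myh11-CreERT2 transgene, in which a smooth muscle myosin promoter drives a Cre that acts when tamoxifen is given, and floxed Tgfbr2 (Tgfbr2 f/f), which encodes the TGF-beta receptor of type II. The groups, with 3 arrays each, were the Fbn1C1039G heterozygous knockout (tamoxifen, hereafter mutant knockout), the Fbn1C1039G heterozygous control (corn oil vehicle, mutant control), the knockout with wild-type Fbn1 (wild-type knockout) and the control with wild-type Fbn1 (wild-type control). The C1039G allele changes fibrillin-1 of the elastic fibre and serves as a mouse model of Marfan syndrome. Tamoxifen, 1 mg on each of 5 days, or the vehicle was given from an age of 4 weeks, and aortas were taken at 6 weeks. Knockout against control was thus also tamoxifen against vehicle, and the groups cannot tell these apart. It is not stated whether the arrays within a group stem from different animals, so the tests gauge the spread between samples, which may be technical. In whole aorta, fewer cells of a type and less RNA per cell cannot be told apart.

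Median intensity per array lay between 301 and 334, and precision rests on 3 arrays in each group. Values are log2 RMA intensity, and each change is a difference between 2 group means on that scale, given with the standard error from limma. "Rose" and "fell" are used for limma's adjusted p under 0.05 over all 14944 genes tested. Tgfbr2 read 12.05, 12.07 and 11.98 in mutant knockouts against 12.04, 11.98 and 11.95 in mutant controls, and 11.88, 11.95 and 11.79 in wild-type knockouts against 11.96, 11.96 and 11.94 in wild-type controls. The probe set of the targeted gene thus measured no clear loss (limma's adjusted p 0.594 in the mutant and 0.324 in the wild-type). The position of these probes was not analysed here, and "knockout" names the tamoxifen groups as labelled. Smooth muscle markers were bright on all arrays, with summed intensity of the 9 genes between 109394 and 114570.

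The clearest pattern among the members went with Fbn1. In the aorta of Fbn1 mutants, 12 of the 59 members fell in the controls and 10 fell in the knockouts, and 0 rose in either comparison. The background for a fall was 3.33% of all genes tested in controls and 3.16% in knockouts, and for a rise 3.17% and 2.8%. These comparisons share no arrays, but the spread of each gene was estimated from all 12 arrays, so their calls are not independent. The members that fell in both were Hsph1, Hspa4l, Hspa4, Hsp90aa1, Hspd1, Dnaja1 and Dnaja4, which are 7 of the 12 and 7 of the 10, where 0.736% of all genes fell in both. The median difference over the members was -0.11 in controls and -0.04 in knockouts, beside -0.02 and 0.01 over all genes tested. Without wild-type control 2 the count in controls was 7, and in knockouts it was 4 without mutant knockout 1, 6 without mutant knockout 2 and 6 without wild-type knockout 1. The falls were uneven over the family. Of 12 tested members listed as stress-inducible 7 fell in controls and 6 in knockouts (medians -0.38 and -0.36). These 12 were Hspa1a, Hspa8, Hspa4l, Hsp90aa1, Hsph1, Dnajb1, Dnaja1, Dnajb4, Hspb1, Hspb8, Hspd1 and Hspe1. The list was drawn up with earlier results of these data known, so its share is a description only. Of 24 tested DnaJC members 0 fell in controls and 1 in knockouts. Outside both lists Hspa4 and Dnaja4 fell in both comparisons, Hspa1l, Hspa2 and Dnajb2 in controls and Hspa13 in knockouts.

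**Figure D1:**
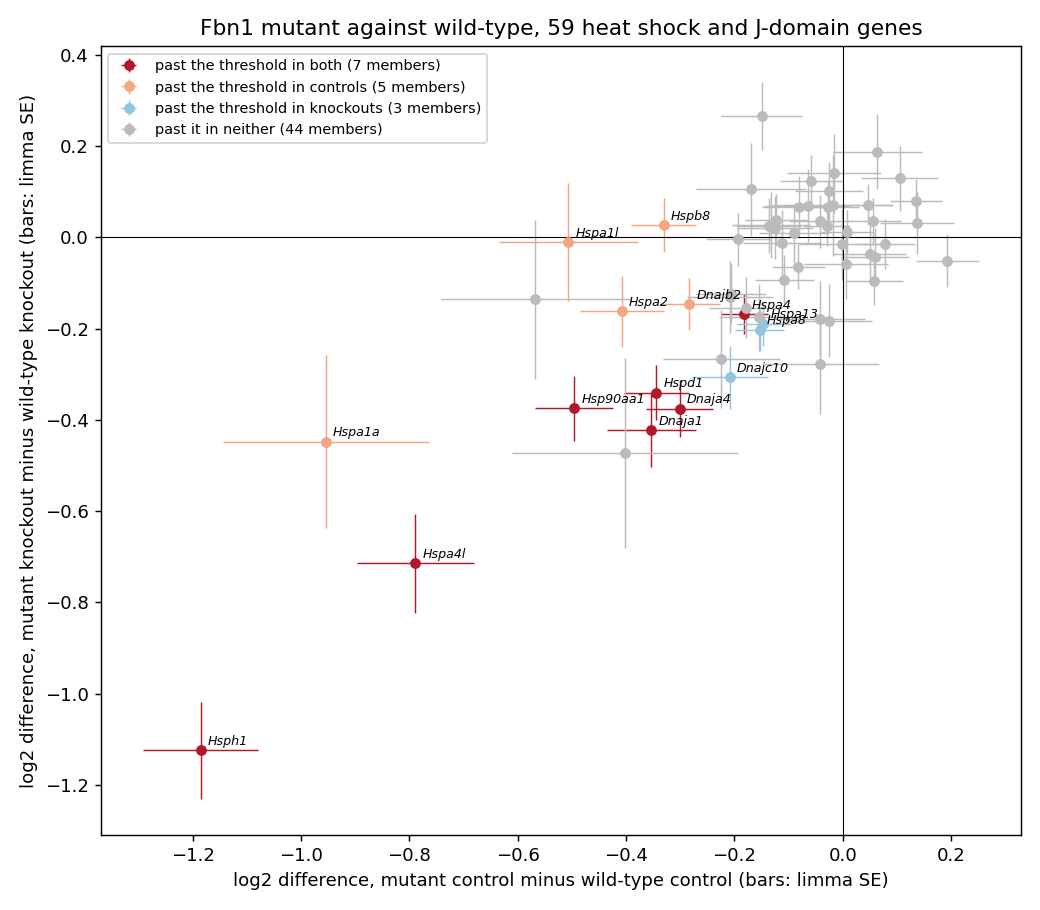
Log2 difference between Fbn1 mutant and wild-type for the 59 members tested, in controls on the horizontal axis and in knockouts on the vertical axis, with bars for limma's standard error. The 7 members past the threshold in both comparisons lie in the lower left, led by Hsph1 at -1.19 and -1.12, and 44 members passed in neither.

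All of the Hsp110 exchange factors fell, with 3 of 3 tested lower in both comparisons. Hsph1, the stress-inducible Hsp110, had 9.98, 9.996 and 10.38 in mutant knockouts against 11.30, 11.21 and 11.22 in wild-type knockouts. In controls it had 10.10, 10.38 and 10.45 in the mutant against 11.42, 11.53 and 11.54 in the wild-type. All 6 mutant arrays lay well below all 6 wild-type arrays, and the gap between them was wider than the range within any group. Hsph1 fell by 1.12 ± 0.11 in knockouts (2.18-fold lower, limma's adjusted p 0.000134) and by 1.19 ± 0.11 in controls (2.27-fold lower, limma's adjusted p 0.000126).

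Hspa4l, an Hsp110 relative best known from testis in mice, had 8.90, 8.99 and 9.33 in mutant knockouts against 9.77, 9.77 and 9.83 in wild-type knockouts, and 9.44, 9.45 and 9.34 in mutant controls against 10.01, 10.19 and 10.40 in wild-type controls. The order ran in steps, with mutant knockouts lowest and wild-type controls highest. Its fall with the Fbn1 mutation was 0.71 ± 0.11 in knockouts (limma's adjusted p 0.00231) and 0.79 ± 0.11 in controls (limma's adjusted p 0.00184). Hspa4, the third Hsp110 gene, differed by far less, at 12.08, 12.11 and 12.09 in mutant knockouts against 12.26, 12.23 and 12.30 in wild-type knockouts, and at 12.04, 11.99 and 11.95 in mutant controls against 12.17, 12.16 and 12.19 in wild-type controls. The groups did not overlap in either pair. Hspa4 fell by 0.17 ± 0.04 and by 0.18 ± 0.04, with limma's adjusted p of 0.04 and 0.0293, and it was no longer past the threshold under 14 of the alternatives tried in knockouts and 8 in controls.

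Promoter windows of some members that fell in at least 1 Fbn1 comparison are shown, because the heat shock element is the known docking site of heat shock factor 1. Of those shown, Hspa1a fell in controls only. RefSeq windows (GRCm38.p6) from 250 bases before to 50 bases after a start site were at hand for 52 of the 65 members. A 3-unit element was searched as GAANNTTCNNGAA or TTCNNGAANNTTC, which are each other's reverse complement, and a 2-unit pair, which each 3-unit match also holds, as GAANNTTC or TTCNNGAA, each of which is its own reverse complement. In the sequences, printed 5′ to 3′ on the gene's strand, capitals mark these matches.
Hsph1, chr5:149636266-149636565, minus strand: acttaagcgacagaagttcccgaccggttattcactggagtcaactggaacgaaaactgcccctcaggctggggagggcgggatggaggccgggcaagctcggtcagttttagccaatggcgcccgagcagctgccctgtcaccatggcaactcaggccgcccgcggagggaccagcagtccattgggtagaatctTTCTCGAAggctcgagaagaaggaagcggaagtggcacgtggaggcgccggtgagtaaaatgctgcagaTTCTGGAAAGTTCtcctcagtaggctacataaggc
Hspd1, chr1:55087883-55088182, minus strand: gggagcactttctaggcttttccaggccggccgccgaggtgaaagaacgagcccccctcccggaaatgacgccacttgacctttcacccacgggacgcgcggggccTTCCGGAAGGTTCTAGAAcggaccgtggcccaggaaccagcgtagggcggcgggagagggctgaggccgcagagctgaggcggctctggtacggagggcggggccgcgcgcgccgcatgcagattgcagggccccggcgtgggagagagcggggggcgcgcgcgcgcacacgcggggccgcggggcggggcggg
Dnaja4, chr9:54699309-54699608, plus strand: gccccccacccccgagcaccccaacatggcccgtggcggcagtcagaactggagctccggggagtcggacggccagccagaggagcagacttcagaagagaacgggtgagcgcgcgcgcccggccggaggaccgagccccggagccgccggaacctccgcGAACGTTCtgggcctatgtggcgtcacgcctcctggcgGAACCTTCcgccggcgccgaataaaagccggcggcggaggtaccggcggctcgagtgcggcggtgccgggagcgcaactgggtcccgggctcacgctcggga
Hspa1a, chr17:34972107-34972406, minus strand: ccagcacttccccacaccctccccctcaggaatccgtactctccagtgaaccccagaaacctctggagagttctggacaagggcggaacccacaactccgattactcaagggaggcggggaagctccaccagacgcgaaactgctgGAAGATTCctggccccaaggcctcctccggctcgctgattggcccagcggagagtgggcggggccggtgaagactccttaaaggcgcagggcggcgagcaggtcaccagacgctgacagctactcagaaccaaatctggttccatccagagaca
Hspa4l, chr3:40745363-40745662, plus strand: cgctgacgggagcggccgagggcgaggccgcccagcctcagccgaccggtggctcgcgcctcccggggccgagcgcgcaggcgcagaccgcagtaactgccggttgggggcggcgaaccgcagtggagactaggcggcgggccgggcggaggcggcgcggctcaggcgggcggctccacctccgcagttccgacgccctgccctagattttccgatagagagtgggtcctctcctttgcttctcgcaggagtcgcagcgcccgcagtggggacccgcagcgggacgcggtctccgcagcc

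The 3-unit element was in a window of 4 of the 52 members (Hsph1, Hspd1, Hspe1 and Dnajb6, 7.69%), beside 0.662% of 27025 genes with a window in the table. In the Hsph1 window it spans bases 266 to 278, just past the start site, and a 2-unit pair lies before it. In the Hspd1 window 2 overlapping 3-unit matches span bases 107 to 124. Hspe1 runs the other way from a start site 215 bases off, so the same letters are in its window. The 2-unit pair was in 15 of the 52 members (28.8%), beside 17.0% of all genes. Among the members that fell in at least 1 Fbn1 comparison it was in 7 of the 12 with a window (58.3%). Among those that fell in neither it was in 7 of 36 (19.4%). Some genes have several windows, and counted by window the shares were 44.4% of 18 and 17.0% of 47. These groups were formed from the falls themselves, and the share among all genes that fell was not analysed here. Hspa4l, with the next largest fall after Hsph1 and Hspa1a in controls, held neither the 3-unit element nor the pair in its window. Nor did Hspa4, Hspa2, Hspa1l or Dnajb2, whose windows are not printed. Windows with a match are thus over-represented among those printed. Dnaja1, also not printed, held a pair in 1 of its windows and no match in the others. The windows of Hspd1 and Dnaja4 that are not printed held no match. A match is a match of letters, binding was not measured, and the part of heat shock factor 1 in the falls was not tested. Dnajc11, Dnajc12, Dnajc18, Dnajc2, Dnajc22, Dnajc30, Dnajc5, Dnajc5b, Hsp90aa1, Hspa13, Hspa8, Hspa9 and Hspb2 had no entry.

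Hsp90aa1, the inducible form of cytosolic Hsp90, had 12.30, 12.37 and 12.50 in mutant knockouts against 12.72, 12.82 and 12.75 in wild-type knockouts. Its values in mutant controls were 12.24, 12.26 and 12.35, against 12.64, 12.78 and 12.91 in wild-type controls. Every mutant array lay below every wild-type array. It fell by 0.37 ± 0.07 in knockouts (limma's adjusted p 0.0092) and by 0.50 ± 0.07 in controls (limma's adjusted p 0.00248). Its other 2 probe sets gave differences of -0.38 and -0.36 in knockouts and of -0.47 and -0.47 in controls. Without mutant knockout 1 the fall in knockouts was 0.33 with limma's adjusted p of 0.0504.

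The mitochondrial chaperonin Hspd1, or Hsp60, had 10.94, 11.08 and 10.91 in mutant knockouts against 11.31, 11.29 and 11.34 in wild-type knockouts, and 10.99, 10.95 and 10.93 in mutant controls against 11.26, 11.24 and 11.41 in wild-type controls. Again no mutant array reached a wild-type array. Hspd1 fell by 0.34 ± 0.06 in knockouts and by 0.34 ± 0.06 in controls (limma's adjusted p 0.00558 and 0.00637), and its other probe set gave -0.49 and -0.38. Hspe1, the Hsp10 lid that is transcribed from the same stretch of promoter, differed by -0.18 ± 0.07 in knockouts and by -0.16 ± 0.07 in controls and did not pass (limma's adjusted p 0.199 and 0.222). Hspa9, the Hsp70 of mitochondria, lay lower in every mutant array than in every wild-type array, with differences of -0.12 and -0.21 that did not pass (limma's adjusted p 0.311 and 0.075). Of the 8 mitochondrial members tested, Hspd1 alone passed in either comparison.

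**Figure D2:**
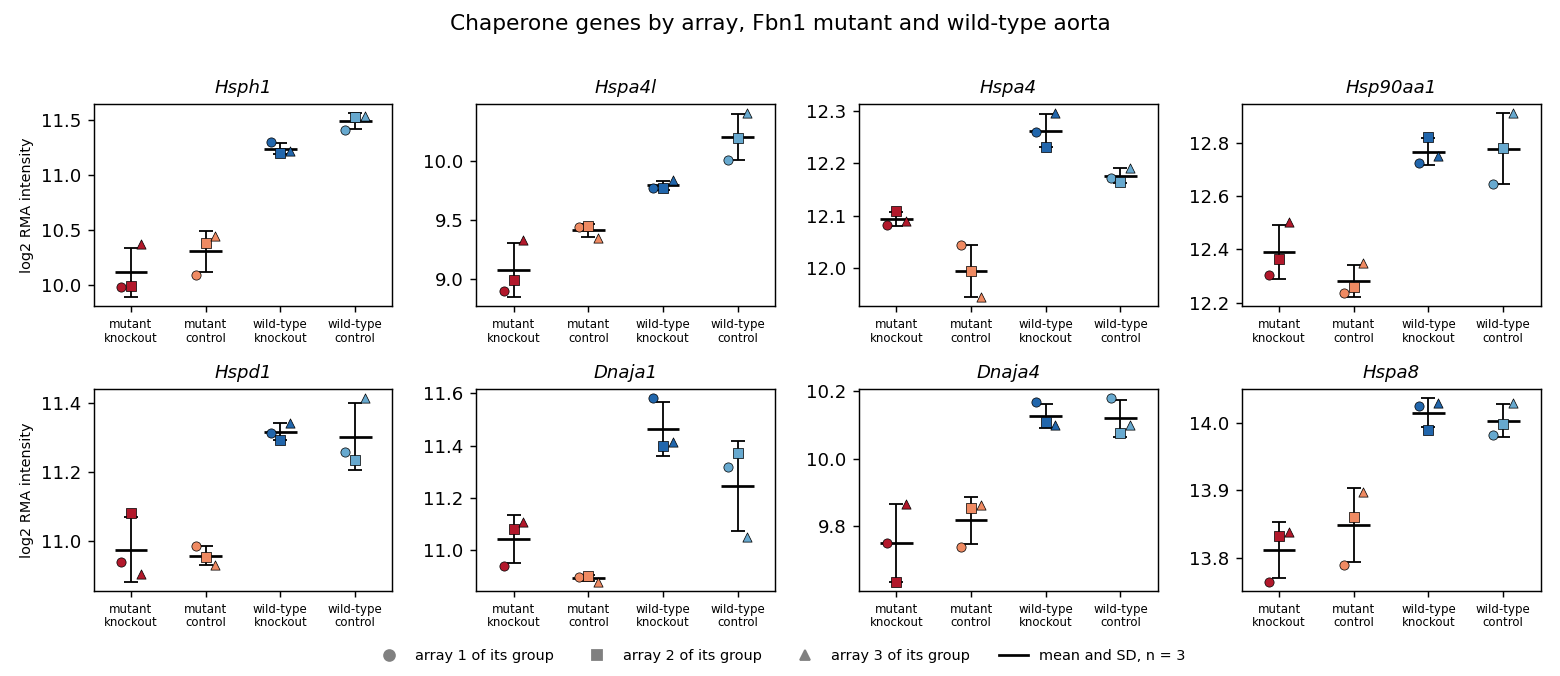
Log2 RMA intensity per array of 8 members in the 4 groups, with symbols for the array number and black bars for the mean and SD of 3 arrays; vertical axes differ between panels and do not start at 0. In each panel but that of Dnaja1 all 6 mutant arrays lie below all 6 wild-type arrays. In the Dnaja1 panel wild-type control 3, at 11.05, lies within the range of the mutant knockouts.

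Among the J-domain proteins of class A, which partner cytosolic Hsp70 as general co-chaperones, Dnaja1 had 10.94, 11.08 and 11.11 in mutant knockouts against 11.58, 11.40 and 11.41 in wild-type knockouts, and 10.90, 10.90 and 10.88 in mutant controls against 11.32, 11.37 and 11.05 in wild-type controls. It fell by 0.42 ± 0.08 and by 0.35 ± 0.08 (limma's adjusted p 0.00979 and 0.0256). The call in controls was lost under 7 of 23 alternatives, among them without any 1 of the 3 mutant controls, wild-type control 1 or wild-type control 2 (-0.29, limma's adjusted p 0.0903), and the call in knockouts under 2, one of them without mutant knockout 1 (-0.37, limma's adjusted p 0.0526). A second probe set of Dnaja1 gave -0.51 and -0.44, but one shared with the microRNA gene Mir207 gave -0.00 and -0.06. Dnaja4, of the same class, had 9.75, 9.64 and 9.87 in mutant knockouts against 10.17, 10.11 and 10.10 in wild-type knockouts, and 9.74, 9.85 and 9.86 in mutant controls against 10.18, 10.08 and 10.10 in wild-type controls. Its mutant and wild-type arrays stood fully apart, with a fall of 0.38 ± 0.06 in knockouts and of 0.30 ± 0.06 in controls (limma's adjusted p 0.00418 and 0.0152), and without mutant control 1 the difference in controls was -0.26 (limma's adjusted p 0.0561). Dnaja2 and Dnaja3, the cytosolic and the mitochondrial member of the class, did not pass in either.

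In class B, Dnajb2, a J-domain protein with ubiquitin-interacting motifs, fell in controls, with 9.99, 10.10 and 10.01 in the mutant against 10.24, 10.40 and 10.31 in the wild-type (0.28 ± 0.06 lower, limma's adjusted p 0.0129, and 0.0536 without wild-type control 2). Its knockouts differed by -0.15 ± 0.06 and did not pass. Dnajb1, or Hsp40, the classic stress-inducible partner of Hsp70, differed by -0.47 ± 0.21 in knockouts and by -0.40 ± 0.21 in controls, without passing (limma's adjusted p 0.224 and 0.263). Its arrays spread most of all members tested, with a pooled SD within groups of 0.314 against a median of 0.0858 over the members and 0.0814 over all genes. Wild-type knockouts alone ranged from 9.96 to 10.83 in Dnajb1. Without wild-type knockout 3 the difference in knockouts was -0.73 with limma's adjusted p of 0.0462. In class C the only fall was that of Dnajc10, a J-domain protein of the endoplasmic reticulum that reduces disulfides, by 0.31 ± 0.07 in knockouts (10.93, 10.93 and 11.20 in the mutant against 11.35, 11.36 and 11.27 in the wild-type, limma's adjusted p 0.0222). The call was lost under 6 of 23 alternatives, among them without mutant knockout 1 (-0.26, limma's adjusted p 0.1002), mutant knockout 2, wild-type knockout 1 or wild-type knockout 2. In controls Dnajc10 differed by -0.21 ± 0.07 without passing.

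The Hsp70 proteins behaved in more than 1 way. Hspa8, the constitutive Hsc70, had 13.76, 13.83 and 13.84 in mutant knockouts against 14.02, 13.99 and 14.03 in wild-type knockouts, a fall of 0.20 ± 0.05 (limma's adjusted p 0.0222). This call was lost under 7 of 23 alternatives, among them without mutant knockout 1 (-0.18, limma's adjusted p 0.102), mutant knockout 2, wild-type knockout 1 or wild-type knockout 3. Its controls had 13.79, 13.86 and 13.90 in the mutant against 13.98, 14.00 and 14.03 in the wild-type, which did not overlap but missed the threshold (-0.15 ± 0.05, limma's adjusted p 0.0673). Its other 2 probe sets gave -0.23 and -0.21 in knockouts and -0.14 and -0.13 in controls. Hspa13, an Hsp70 relative that lacks the usual peptide-binding domain, fell by 0.19 ± 0.05 in knockouts (limma's adjusted p 0.038), a call lost without any 1 of the 6 arrays compared.

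Hspa1a, the strongly heat-inducible Hsp70, had 10.98, 11.66 and 11.82 in mutant controls against 12.36, 12.74 and 12.22 in wild-type controls. The groups did not overlap, and mutant control 1 lay lowest by a wide margin. Hspa1a fell by 0.95 ± 0.19 (1.94-fold lower, limma's adjusted p 0.0127). Without wild-type control 2 the difference was -0.81 (limma's adjusted p 0.0504). In knockouts it had 12.37, 12.28 and 12.53 in the mutant against 12.89, 12.99 and 12.63 in the wild-type, a difference of -0.45 ± 0.19 that did not pass (limma's adjusted p 0.203). Hspa1a and Hspa1b are near-identical copies, so these reads are uncertain as to the copy, and the probe set annotated to both gave -0.99 in controls and -0.51 in knockouts. Hspa1l, whose start site lies 546 bases from that of Hspa1a on the other strand, fell in controls by 0.51 ± 0.13 (limma's adjusted p 0.0373) and differed in knockouts by -0.01 ± 0.13. The call in controls was lost under 8 of 23 alternatives, among them without mutant control 1 (-0.39, limma's adjusted p 0.114), mutant control 2, wild-type control 1, wild-type control 2 or wild-type knockout 1. Hspa2, an Hsp70 best known from testis in mice, fell in controls by 0.41 ± 0.08, with 11.07, 11.20 and 11.26 in the mutant against 11.62, 11.56 and 11.57 in the wild-type (limma's adjusted p 0.00985), and differed in knockouts by -0.16 ± 0.08.

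Of the 8 tested members with an Hspb symbol, 1 fell in controls and 0 passed in knockouts. In knockouts 7 of the 8 differences were above 0 (median 0.03). Hspb8, which works with Bag3 in the removal of damaged proteins in muscle, fell in controls by 0.33 ± 0.06, with 12.45, 12.42 and 12.58 in the mutant against 12.86, 12.86 and 12.73 in the wild-type (limma's adjusted p 0.0073), and differed in knockouts by 0.03 ± 0.06. Hspb1, or Hsp25, which binds actin filaments, had 12.70, 13.12 and 13.50 in mutant controls against 13.45, 13.75 and 13.83 in wild-type controls. These arrays overlapped, and the difference of -0.57 ± 0.17 missed the threshold (limma's adjusted p 0.0716), but without mutant control 3 it was -0.76 with limma's adjusted p of 0.016. Hspb6, a muscle small heat shock protein also called Hsp20, lay between 14.05 and 14.17 on all 12 arrays. Hspb7, found mainly in heart and muscle, lay between 13.46 and 13.73, and neither passed in a comparison. Hspb2, a small heat shock protein of muscle, went the other way in knockouts, with 10.90, 10.84 and 11.01 in the mutant against 10.74, 10.62 and 10.59 in the wild-type. Every mutant knockout array lay above every wild-type knockout array. The difference of 0.27 ± 0.07 in knockouts was the highest of the 59 members but missed the threshold (limma's adjusted p 0.0545). It passed under 5 of 23 alternatives, among them without wild-type control 1 (limma's adjusted p 0.0211). In controls Hspb2 differed by -0.15 ± 0.07 without passing.

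Across both states of Tgfbr2, every mutant array lay below every wild-type array in 10 of the 59 members, where 1.47% of all genes tested did so. These were Hsph1, Hspa4l, Hspa4, Hsp90aa1, Hspd1, Dnaja4, Hspa8, Hspa9, Hspa13 and Dnajc10. Mutant and wild-type did not overlap, with the mutant lower, in 24 members in controls (background 16.6%) and in 18 in knockouts (background 11.9%). They did not overlap, with the mutant higher, in 2 members in controls (background 11.4%), Dnajc14 and Hspb7, and in 6 in knockouts (background 14.4%). Averaged over the 12 stress-inducible members tested, the deviation from each gene's mean, in order of array number, was -0.19, -0.21 and -0.01 in mutant knockouts and -0.43, -0.29 and -0.19 in mutant controls. It was 0.30, 0.27 and 0.18 in wild-type knockouts and 0.15, 0.26 and 0.17 in wild-type controls. Mutant control 1 stood lowest and mutant knockout 3 came nearest to the wild-type arrays. The median deviation over all genes tested was also highest in mutant knockout 3, at 0.05, with wild-type knockout 2 next at 0.03. Mutant control 1 also held the lowest of the 12 values for 13 of the 59 members.

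Genes of the chaperone machinery outside the family moved alongside. Of 41 tested partners and regulators (45 listed) 7 fell in controls and 8 in knockouts, and 0 rose, with medians of -0.08 and -0.05. Cacybp, a partner of the SIAH1 ubiquitin ligase and of Hsp90, had 11.56, 11.56 and 11.59 in mutant knockouts against 11.97, 12.14 and 12.05 in wild-type knockouts, and 11.38, 11.68 and 11.59 in mutant controls against 12.10, 12.08 and 11.94 in wild-type controls. Its fall was 0.48 ± 0.08 in knockouts and 0.49 ± 0.08 in controls. Stip1, or Hop, which links Hsp70 to Hsp90, fell by 0.38 ± 0.08 and by 0.48 ± 0.08. The Hsp90 co-chaperone Chordc1 fell by 0.45 ± 0.08 and by 0.44 ± 0.08, and the Hsp90 activator Ahsa2 by 0.47 ± 0.06 and by 0.34 ± 0.06. Ahsa1, Fkbp4 and the chaperonin subunit Cct6a also fell in both, and Cct3 fell in knockouts. Hsf2, Hsf4, Bag3 and the lens and muscle small heat shock protein Cryab did not pass in either, and Hsf1 was not analysed here. Of the 5 endoplasmic reticulum chaperones that the rule leaves out, Hspa5 and Dnajc3 fell in both comparisons and Dnajb11 in knockouts.

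**Figure D3:**
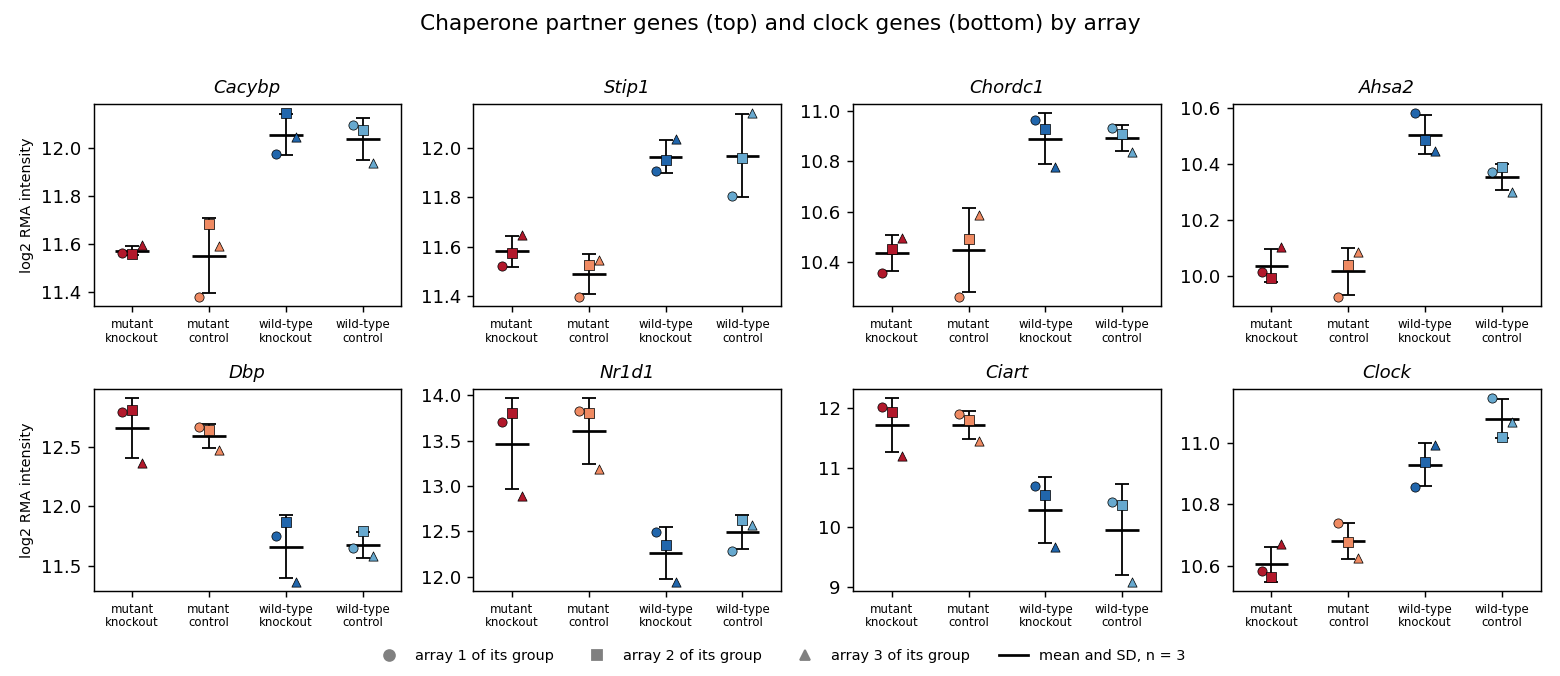
Log2 RMA intensity per array of 4 partner genes (top) and 4 circadian clock genes (bottom), with symbols for the array number and black bars for the mean and SD of 3 arrays; vertical axes differ between panels and do not start at 0. Cacybp, Stip1, Chordc1, Ahsa2 and Clock lie lower in mutant than in wild-type arrays, and Dbp, Nr1d1 and Ciart lie higher.

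Circadian clock genes differed between the same arrays. Of 15 tested (16 listed) 7 rose and 1 fell in controls, and 8 rose and 2 fell in knockouts. The clock output gene Dbp had 12.79, 12.81 and 12.36 in mutant knockouts against 11.75, 11.87 and 11.37 in wild-type knockouts, and 12.66, 12.64 and 12.48 in mutant controls against 11.65, 11.80 and 11.58 in wild-type controls. It rose by 0.99 ± 0.13 and by 0.92 ± 0.13 (limma's adjusted p 0.00124 and 0.00273), the repressor Nr1d1 by 1.20 ± 0.23 and by 1.11 ± 0.23, and Clock fell by 0.32 ± 0.06 and by 0.40 ± 0.06. The labels give no hour of tissue collection, and the part of the clock in the chaperone result was not tested. Smooth muscle markers summed to 110405 to 111840 in mutant knockouts against 110139 to 111734 in wild-type knockouts, and to 109394 to 112939 in mutant controls against 113147 to 114570 in wild-type controls, with 0 of 9 up in either, 1 down in knockouts and 2 down in controls. Of 10 macrophage markers 4 fell in knockouts (15173 to 15724 in the mutant against 18946 to 20832 in the wild-type) and 1 rose in controls (9707 to 13023 in the mutant against 9153 to 11576 in the wild-type). Their part in the chaperone result was not tested.

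Knockout against control in the Fbn1 mutant aorta gave 4 members that rose and 1 that fell, which are 6.78% and 1.69% of the 59 members, at backgrounds of 7.66% and 5.77% of all genes tested. The share that rose was near its background and the share that fell was below it. The groups did not overlap, with the knockout higher, in 14 members (background 21.7%). The comparison shares its mutant controls with the Fbn1 comparison in controls, and Hspa1a, Hspa1l and Hspb8, which lay low in that group, appear in both. Hspa1a had 12.37, 12.28 and 12.53 in mutant knockouts against 10.98, 11.66 and 11.82 in mutant controls. It rose by 0.91 ± 0.19 (1.87-fold, limma's adjusted p 0.0101), with the groups well apart, and the probe set shared with Hspa1b gave 0.87. Hspa1l rose by 0.64 ± 0.13, with 10.42, 10.44 and 10.65 in mutant knockouts against 9.62, 9.99 and 9.98 in mutant controls (limma's adjusted p 0.00846).

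Hspb8 rose by 0.35 ± 0.06, with 12.77, 12.81 and 12.93 in mutant knockouts against 12.45, 12.42 and 12.58 in mutant controls (limma's adjusted p 0.00291). Dnajb5, a J-domain protein known in heart for regulating a histone deacetylase, rose by 0.54 ± 0.10, with 11.51, 11.36 and 11.70 in mutant knockouts against 10.88, 11.01 and 11.07 in mutant controls (limma's adjusted p 0.00592). The mean in mutant knockouts was 12.39 for Hspa1a, 10.50 for Hspa1l and 12.84 for Hspb8, against 12.44, 10.37 and 12.82 in wild-type controls. Dnajb5 had 11.53 in mutant knockouts and 11.16 in wild-type controls (11.10, 11.26 and 11.12), so that its mutant knockouts lay above every wild-type control, as the plot of these members by array shows. These pairs of groups differ in 2 factors and were not tested. Hspb1 differed by 0.54 ± 0.17, with 13.66, 13.37 and 13.90 in mutant knockouts overlapping 12.70, 13.12 and 13.50 in mutant controls, and missed the threshold (limma's adjusted p 0.0587). Without mutant control 3 its difference was 0.73 with limma's adjusted p of 0.0121. Hsph1, Hsp90aa1, Hspd1, Hspa8 and Dnaja1 did not pass, with differences between -0.19 and 0.15.

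**Figure D4:**
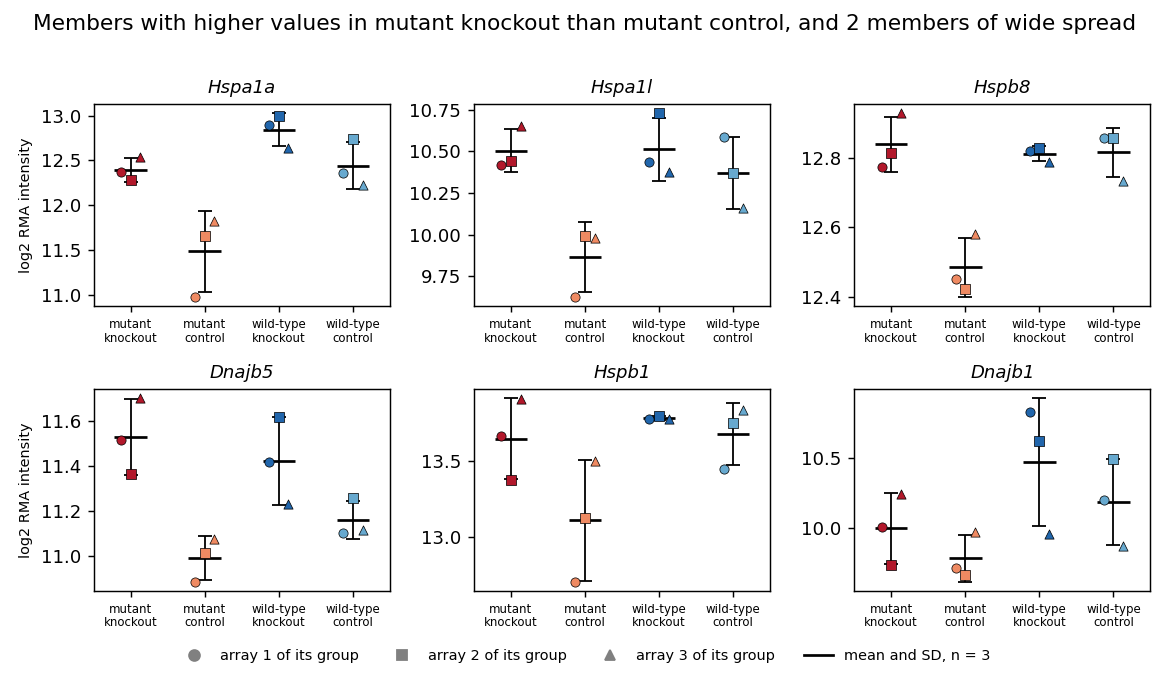
Log2 RMA intensity per array of Hspa1a, Hspa1l, Hspb8, Dnajb5, Hspb1 and Dnajb1 in the 4 groups, with symbols for the array number and black bars for the mean and SD of 3 arrays; vertical axes differ between panels and do not start at 0. In the Hspa1a, Hspa1l, Hspb8 and Dnajb5 panels all mutant control arrays lie below all mutant knockout arrays, and in the Hspb1 and Dnajb1 panels these groups overlap.

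Immediate early genes, which many stimuli induce within minutes, moved with this comparison: 7 of 25 rose, and their summed intensity was 54131 to 99849 in mutant knockouts against 45521 to 53683 in mutant controls. The mean log2 level of that list was 10.78 in mutant knockouts against 10.25 in mutant controls. As a covariate it therefore overlaps with the groups compared, and a call lost with it does not show the part of these genes. That part was not tested. With this mean level as a covariate, Hspb8 alone of the 5 members still passed. The difference was then 0.60 for Hspa1a (limma's adjusted p 0.131), 0.49 for Hspa1l (limma's adjusted p 0.105), 0.33 for Dnajb5 (limma's adjusted p 0.087) and -0.26 for Hspa2 (limma's adjusted p 0.163), and each kept its direction. Cardiac muscle markers summed to 13859 to 16536 in mutant knockouts against 7729 to 10958 in mutant controls (2 of 8 up, 1 down), all 5 tested skeletal muscle markers rose (3262 to 3439 in mutant knockouts against 2750 to 2962 in mutant controls), and 6 of 10 macrophage and 4 of 8 endothelial markers rose. The part of the cell-type markers in the rise of these members was not tested. Centring each array on its median gave 4 rises and 5 falls, a split that differs from the 4 and 1 above, and without mutant knockout 3 the count was likewise 9.

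In the wild-type Fbn1 aorta, 2 members rose and 3 fell with knockout, below the backgrounds of 9.17% and 9.66%. The comparison shares its wild-type controls with the Fbn1 comparison in controls. Hspa2 and Hspa4l, which lay high in that group, appear in both. Its wild-type knockouts, in which Hspb2 lay low, also serve in the Fbn1 comparison in knockouts. Hspa2 had 10.92, 11.10 and 11.09 in wild-type knockouts against 11.62, 11.56 and 11.57 in wild-type controls, a clean separation. It fell by 0.55 ± 0.08 (1.46-fold lower, limma's adjusted p 0.00044), and in the mutant it fell by 0.30 ± 0.08, with 10.72, 10.89 and 11.01 in knockouts against 11.07, 11.20 and 11.26 in controls (limma's adjusted p 0.0252). It was the one member past the threshold with knockout in both genotypes, although the call in the mutant was lost under 7 alternatives. Hspb2 fell by 0.46 ± 0.07, with 10.74, 10.62 and 10.59 in wild-type knockouts against 10.94, 11.19 and 11.21 in wild-type controls (limma's adjusted p 0.00103). In the mutant Hspb2 differed by -0.04 ± 0.07. Hspa4l fell by 0.41 ± 0.11 (limma's adjusted p 0.0192), with 9.77, 9.77 and 9.83 in wild-type knockouts against 10.01, 10.19 and 10.40 in wild-type controls. The call was lost under 5 of 23 alternatives, among them without wild-type control 2, wild-type control 3 (-0.31, limma's adjusted p 0.0724), wild-type knockout 1 or wild-type knockout 2.

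Hspa12a, a distant Hsp70 relative, rose by 0.34 ± 0.08, with 8.90, 9.16 and 9.04 in wild-type knockouts against 8.81, 8.67 and 8.62 in wild-type controls (limma's adjusted p 0.0137). Dnajc9, a J-domain protein that is also a histone chaperone, rose by 0.21 ± 0.05, with 9.12, 9.05 and 9.07 in wild-type knockouts against 8.94, 8.89 and 8.77 in wild-type controls (limma's adjusted p 0.013). Without wild-type knockout 2 the adjusted p of Hspa12a by limma was 0.0528, and without wild-type knockout 1 that of Dnajc9 was 0.0546. Of the 12 stress-inducible members tested, Hspa4l was the one that passed. Among the others Hspa1a differed by 0.40 ± 0.19, Dnajb1 by 0.28 ± 0.21, Dnaja1 by 0.22 ± 0.08 and Hsph1 by -0.25 ± 0.11. All 10 macrophage markers rose in this comparison, with summed intensity of 18946 to 20832 in wild-type knockouts against 9153 to 11576 in wild-type controls, and 4 of 8 endothelial and 4 of 7 fibroblast markers rose. Of 9 smooth muscle markers 0 rose and 2 fell, with a sum of 110139 to 111734 in wild-type knockouts against 113147 to 114570 in wild-type controls. Of 8 cardiac markers 2 rose and 1 fell (12557 to 14378 in wild-type knockouts against 9044 to 10396 in wild-type controls), and 1 of 5 skeletal muscle markers rose. Their part in the member results was not tested. Without wild-type knockout 1 the count of members past the threshold was 3.

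**Figure D5:**
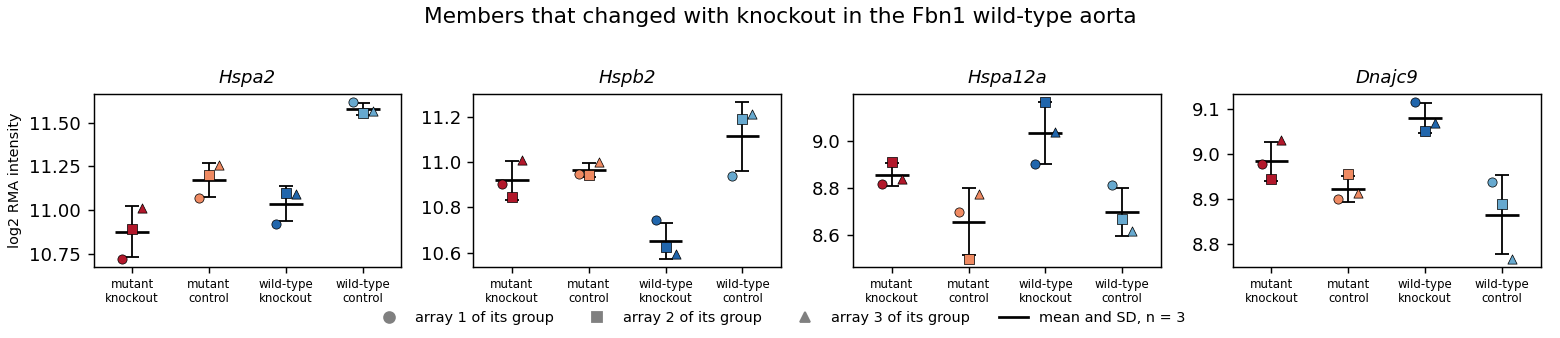
Log2 RMA intensity per array of Hspa2, Hspb2, Hspa12a and Dnajc9 in the 4 groups, with symbols for the array number and black bars for the mean and SD of 3 arrays; vertical axes differ between panels and do not start at 0. Wild-type knockout arrays lie below wild-type control arrays for Hspa2 and Hspb2 and above them for Hspa12a and Dnajc9.

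Whether knockout acted differently in the 2 Fbn1 genotypes was tested as the knockout effect in the mutant minus that in the wild-type. By limma 0 of the 59 members passed (background 1.48%), and 7 had an unadjusted p under 0.05 (background 16.5%). Hspb8 came nearest, with a difference of effects of 0.36 ± 0.08 (limma's adjusted p 0.0592), then Hspb2 with 0.42 ± 0.10 (limma's adjusted p 0.0725). Under single alternatives Hspb8 passed 6 times and Hspb2 2 times, among them without mutant control 3 for Hspb8 (limma's adjusted p 0.0374) and without wild-type control 1 for Hspb2 (limma's adjusted p 0.023). Hspa1a differed between genotypes by 0.51 ± 0.27, Hspa1l by 0.50 ± 0.18 and Dnajb5 by 0.27 ± 0.14, and none of these passed. The rises seen in the mutant aorta are thus not shown to differ from the changes in the wild-type aorta. The same contrast is the Fbn1 difference in knockouts minus that in controls. Falls that passed in controls alone or in knockouts alone are therefore not shown to differ between knockouts and controls.

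The 24 DnaJC members, which serve narrow tasks from vesicle uncoating to mitochondrial import, rarely passed. Of these, 1 rose and 0 fell with knockout in the wild-type (Dnajc9), 0 passed with knockout in the mutant, and 1 fell with the Fbn1 mutation (Dnajc10, in knockouts). Dnajc13, an endosomal J-domain protein chosen here after its values were seen, was read by 15 probe sets. In the mutant, knockout minus control was negative in each of the 15, between -0.60 and -0.17, and the probe set used gave -0.27 ± 0.11 (limma's adjusted p 0.109). These probe sets read the same 12 RNA samples and are no replicates. Dnajb6 was read by a dim probe set, at 7.76 to 8.20, while 4 probe sets it shares with a predicted gene were left out of the fit and gave differences between 0.02 and 0.16 over the 4 comparisons of groups.

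In all, 19 of the 59 members tested passed in at least 1 of the 4 comparisons of groups and 40 passed in none. Those 40 were 30 J-domain genes and 10 others, namely Hspa9, Hspa12b, Hspa14, Hspe1, Hspb1, Hspb3, Hspb6, Hspb7, Hspb9 and Hspb11. Their differences lay between -0.47 (Dnajb1) and 0.19 with the Fbn1 mutation in knockouts and between -0.57 (Hspb1) and 0.19 in controls. With knockout they lay between -0.27 and 0.54 in the mutant, from Dnajc13 to Hspb1, and between -0.17 and 0.28 in the wild-type, where Dnajb1 was at the top.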

How the data were processed

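RNA of mouse ascending aorta was labelled and hybridised to 1-colour whole-transcript arrays, 12 in 4 groups of 3. The deposited values are linear intensity, normalised by RMA in Partek 6.4 per the submitters' processing notes, and log2 was taken here. Genome positions of probes were not given in the sources used here. No 2 arrays held identical values, and 0 columns belonged to other samples.

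A gene was read by its brightest probe set among the 21789 annotated to 1 symbol. Probe sets with several symbols (1621) or no name (12146) were left out of the fit. Genes below the 25th percentile of those probe sets (intensity 159) were not tested. A model with a mean for each group was fitted in limma 3.58.1 under R 4.3.3 to the 12 arrays (lmFit, eBayes without trend, 8 residual degrees of freedom, prior 4.54). Tests were two-sided and adjusted by Benjamini and Hochberg over 14944 genes, with a threshold of 0.05. The procedure was tested on simulated data. Figures were drawn with matplotlib 3.10.9.

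The members, gene lists and alternatives were chosen with earlier results of these data known. Named genes are the members past the threshold (at most 10 in each direction), the main inducible chaperones, members of brightest signal or widest spread, up to 4 genes per list by p, and Tgfbr2, and others were chosen after their values were seen. Promoter windows were RefSeq's, and 65 of 65 members matched its symbols. Alternatives covered the filter, scaling, probe sets, variance model, array weights, arrays in the fit, a replicate block, an immediate early covariate and leaving out arrays.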

Additional observations from a re-analysis of the deposited data

How the results depend on the processing

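Over 23 alternatives no member reversed its direction with a call, and 13 of 32 member calls held in every one, among them Hsph1, Hspa4l and Hspd1 with the Fbn1 mutation in controls and in knockouts, Hspb8 in controls and with knockout in the mutant, and Hspa2 and Hspb2 with knockout in the wild-type. Many of the other calls lay near the threshold. Counts of members past it moved by over 1.5 times as follows, and the cause was not tested. For knockout in the wild-type (5), array weights gave 8, and leaving out single arrays gave 3 to 6. For knockout in the mutant (5), quantile normalization gave 8, median centring 9, eBayes with trend and robust 8, array weights 16 (9 up, 7 down) and the immediate early covariate 1, and leaving out single arrays gave 4 to 9. For the Fbn1 mutation in controls (12), leaving out single arrays gave 7 to 13. For the Fbn1 mutation in knockouts (10), leaving out mutant control 3 and mutant knockout 1, the arrays of highest Ucp1, gave 4, and leaving out single arrays gave 4 to 11. For the difference of knockout effects (0), a filter at the median, quantile normalization, eBayes with trend and robust, and leaving out the arrays of highest Ucp1 gave 1 each and array weights 2, and leaving out single arrays gave 0 to 1. Deviations of same-numbered arrays correlated between -0.22 and 0.24, and 3 of 18 pairs were over 0.1. Arrays of different number were not compared, so whether the numbers in the titles pair the samples cannot be told. With the replicate block the counts were 5, 7, 12, 8 and 0 in the order above. Probe brightness and 3 arrays per group limit what could be detected among dim members.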
